A study of Mus musculus with 2 samples.

Results

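Neutrophils of the postischemic mouse kidney were taken from single-cell RNA libraries of 1 *Cre-* mouse and 1 *PHDTiEC* mutant mouse. They were chosen by measured values. A barcode counted as a neutrophil when *S100a8* and *S100a9* together gave at least 200 per 10000 of its unique molecular identifiers (UMIs, 1 per captured RNA molecule) and *Retnlg*, *Cxcr2* and *Csf3r* together gave at least 2 UMIs. This rule found 655 neutrophils among 17701 kept barcodes. Of these, 345 were among the 8468 kept barcodes of the *Cre-* library and 310 among the 9233 of the library labelled *PHDTiEC*. Both mice, 8 to 10 weeks old, had the left renal pedicle clamped for 25 minutes, and the injured kidney was taken on day 14. The study's methods name male mice for this clamping time. Both received 4 doses of 3 mg tamoxifen every other day from day 1 and carried floxed alleles of *Egln2*, *Egln1* and *Egln3*, which encode the oxygen-sensing prolyl hydroxylases PHD1, PHD2 and PHD3. The *PHDTiEC* mouse also carried *Cdh5(PAC)-CreERT2*, in which tamoxifen activates Cre under the promoter of the endothelial gene *Cdh5*. Cre is thus driven by an endothelial and not a neutrophil promoter. Since each genotype is 1 library of 1 mouse, the comparisons have no replicates and no test was made. Every interval given is a 95% interval for counting error alone.

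Neutrophils are short-lived granulocytes that leave the bone marrow fully formed, carry granules of proteases and antimicrobial proteins, and are drawn into injured tissue by chemokines such as CXCL1 and CXCL2 through the receptor CXCR2. The granule proteins are made in a fixed order during maturation in the marrow, azurophil first, then specific, then gelatinase granules, so mature cells hold little RNA for the early ones. In tissue the cells can alter their expression, and neutrophils bearing SiglecF have been described in injured and inflamed organs.

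Kept barcodes held 111958662 and 126549073 UMIs in all, *Cre-* first. A neutrophil had a median of 1903 UMIs and 789 genes in the *Cre-* library and 1923.5 UMIs and 793.5 genes in the other. Macrophage barcodes, here those rich in C1q genes with a *Csf1r* UMI, had medians of 7380 and 7804 UMIs. There were 27 kept barcodes seen in both libraries, and 0 of them were neutrophils. Barcodes under 100 UMIs, which hold free RNA, carried 7.13 and 6.495 *S100a8* and *S100a9* UMIs per 10000, and the median of the other kept barcodes was 0 in both libraries. In endothelial barcodes, *Egln1* stood at 69.3 and 173 CPM (counts per 1000000 UMIs, *Cre-* first), *Egln2* at 37.0 and 38.3, and *Egln3* at 22.3 and 128. None of the 3 floxed genes was thus lower in the library labelled *PHDTiEC*. A count per gene does not tell whole transcripts from those that lack a deleted exon. In the neutrophils, *Egln1* had 13 and 11 UMIs, *Egln2* 18 and 17, and *Egln3* 65 and 73.

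The neutrophils made up 4.07% of kept barcodes in the *Cre-* library (interval 3.66 to 4.52) and 3.36% in the library labelled *PHDTiEC* (interval 3.00 to 3.75), a ratio of 0.824 (interval 0.705 to 0.964). Of the 4464 and 4959 kept barcodes that held a UMI of the leukocyte gene *Ptprc* or were neutrophils by the rule, they made up 7.73% and 6.25%. The *S100a8* and *S100a9* level ran from 201 to 4315 per 10000 UMIs with a median of 773 in the *Cre-* library, and from 201 to 4405 with a median of 835 in the other. The edge of the rule fell in a continuum. The lowest neutrophils stood at 201 and 206 in the *Cre-* library and 201 and 204 in the other, while the nearest barcodes outside, with enough receptor UMIs, stood at 199 and 198, and at 197 and 193. Between 100 and 200 per 10000 there were 54 and 57 such barcodes. A further 54 and 63 barcodes passed the *S100a8* and *S100a9* limit with 0 or 1 receptor UMI. These were not counted as neutrophils.

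The label was checked with genes that the rule did not use. *Mmp9*, the gelatinase stored in the last granules to form, stood at 1317 CPM (interval for its 1053 UMIs, 1238 to 1399) in *Cre-* neutrophils and 1351 in those of the library labelled *PHDTiEC*, against 4.70 and 3.40 CPM in macrophages and 12.3 and 7.18 in monocytes (barcodes with *Ly6c2* and *Ccr2*). With every cell thinned to 1000 UMIs, 63.5% and 62.5% of neutrophils held an *Mmp9* UMI, and 0.284% and 0.224% of macrophages. *Il1r2*, the decoy receptor for interleukin-1, stood at 1322 and 1428 CPM in neutrophils and at 5.70 and 5.03 in macrophages. *Hdc*, the enzyme that makes histamine, gave 1313 and 1366 CPM against 3.78 and 3.54. By the ratio of neutrophils over all other kept barcodes, the leading genes were *Retnlg*, *S100a9*, *Stfa2*, *S100a8* and *Stfa2l1*, followed by *Cstdc5*, *Cstdc4*, *Wfdc21*, *Cxcr2* and *Asprv1* and then *Mirt2*, *Slfn4*, *Hdc*, *Trim30b* and *Ifitm1*. *Retnlg* was 3186 times and *Ifitm1* 147 times the level of the other barcodes, but the rule chose on *Retnlg*, and these ratios are descriptions. *Stfa2*, *Stfa2l1*, *Cstdc4* and *Cstdc5* belong to a cluster of near-identical stefin genes, so the split of UMIs among them is uncertain.

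*Retnlg*, *S100a9* and *S100a8*, all of the rule, stood at places 1, 2 and 4 of this order, with *Stfa2* at 3. The promoter windows of these 3 rule genes follow so that the genes can be located. *S100a8* and *S100a9* encode the subunits of calprotectin, and *Retnlg* encodes a resistin-like secreted protein. Each window is from RefSeq (GRCm38.p6), 250 bases before to 50 after the annotated start, written on the gene's strand, and capitals mark 2 short motifs. One is TTGCNNAA, a form of the C/EBP site, and the other is TATAAA, the TATA box, both searched on both strands, with no overlap between them here. The windows are chr3:90668821-90669120 (plus strand) for *S100a8*, chr3:90695672-90695971 (minus strand) for *S100a9* and chr16:48872358-48872657 (plus strand) for *Retnlg*.
S100a8: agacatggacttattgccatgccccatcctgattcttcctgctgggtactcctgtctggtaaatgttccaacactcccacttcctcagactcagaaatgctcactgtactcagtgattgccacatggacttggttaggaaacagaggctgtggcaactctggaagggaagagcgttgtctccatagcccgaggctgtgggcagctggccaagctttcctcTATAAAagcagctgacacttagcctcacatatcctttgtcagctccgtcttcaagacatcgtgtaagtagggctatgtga
S100a9: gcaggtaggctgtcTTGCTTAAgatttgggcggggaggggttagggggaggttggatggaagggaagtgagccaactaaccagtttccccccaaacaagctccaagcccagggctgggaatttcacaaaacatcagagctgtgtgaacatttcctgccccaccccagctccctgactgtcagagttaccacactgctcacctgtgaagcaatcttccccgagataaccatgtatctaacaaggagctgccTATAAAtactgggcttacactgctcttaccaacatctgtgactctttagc
Retnlg: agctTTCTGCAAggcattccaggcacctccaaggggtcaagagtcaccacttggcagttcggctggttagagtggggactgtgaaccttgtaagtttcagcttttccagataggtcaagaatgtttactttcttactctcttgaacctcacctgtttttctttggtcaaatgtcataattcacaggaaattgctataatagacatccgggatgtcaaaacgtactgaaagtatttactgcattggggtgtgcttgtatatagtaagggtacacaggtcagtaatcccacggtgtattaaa
TATAAA began 30 bases before the annotated start of *S100a8* and at the annotated start itself of *S100a9*, and was not found in the *Retnlg* window. TTGCNNAA was found in the windows of *S100a9* (236 bases before the start) and *Retnlg* (246 before, on the other strand). Of 27025 mouse promoters of this length, 14.2% held TATAAA and 10.8% TTGCNNAA. A match is a description of letters and not evidence of a bound site.

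Several inflammatory RNAs lay in the neutrophils far more often than the neutrophils' share of barcodes, in both libraries. *Il1b*, the proinflammatory cytokine interleukin-1β, stood at 14886 CPM in *Cre-* neutrophils and 12331 in those of the library labelled *PHDTiEC*, where macrophages had 1596 and 1401 and monocytes 1025 and 943. Thus 16.6% and 12.8% of all *Il1b* UMIs in kept barcodes lay in the neutrophils, which held 0.714% and 0.556% of all UMIs. *Cxcl2*, a ligand of CXCR2, stood at 13162 and 14222 CPM against 1810 and 1740 in macrophages, and 11.8% and 10.2% of its UMIs were in neutrophils. The related ligand *Cxcl3* had 19.7% and 16.4% of its UMIs there. *Ptgs2*, the inducible cyclooxygenase of prostaglandin synthesis, had 26.3% and 18.2%, with 1622 and 1206 CPM in neutrophils against 65.0 in macrophages of either library. The interleukin-1 antagonist *Il1rn* had 9.91% and 8.58% and oncostatin M (*Osm*), a cytokine of the interleukin-6 family, 10.1% and 6.60%. Not all cytokines followed this order. *Tnf* had 43 and 56 UMIs in neutrophils, 1.06% and 1.56% of its total, and *Tgfb1* had 0.894% and 0.756%. Both lay below the neutrophils' share of barcodes but above their 0.714% and 0.556% of UMIs. *Il6* had 1 and 0 UMIs.

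**Figure D1:**
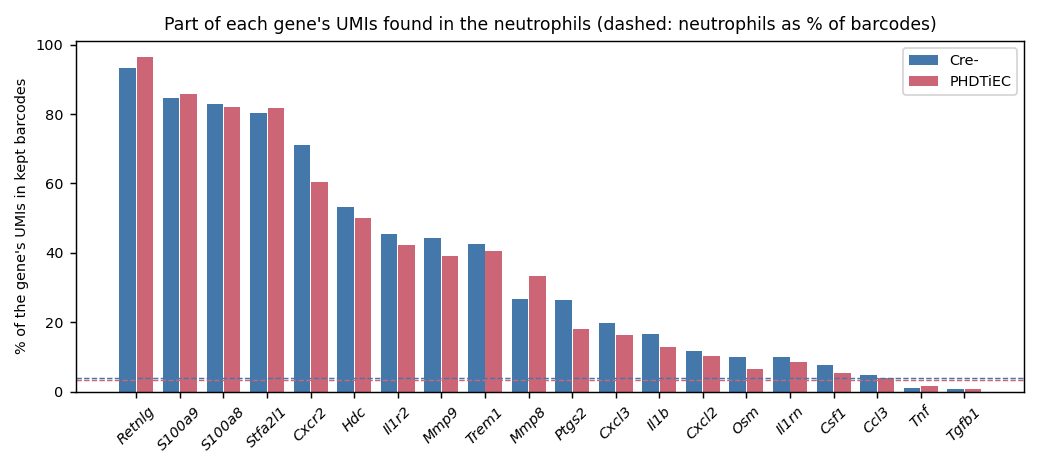
Percent of each gene's UMIs in kept barcodes that lay in neutrophils, as bars for the *Cre-* library (blue) and the library labelled *PHDTiEC* (red), with dashed lines at the neutrophils' percent of kept barcodes (4.07 and 3.36). *Retnlg*, *S100a8* and *S100a9* stand above 80% and were used to choose the cells, and *Il1b* stands at 16.6% and 12.8%. *Tnf* and *Tgfb1* lie below the dashed lines but above the neutrophils' share of all UMIs (0.714% and 0.556%), which is not drawn.

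In the same cells, the receptors for these signals were measured. *Cxcr2* stood at 1162 and 1122 CPM and *Csf3r*, the receptor for granulocyte colony-stimulating factor, at 1442 and 1211, both used by the rule. *Cxcr4*, which retains neutrophils in marrow and is found on aged cells, stood at 329 and 328 CPM, a log2 ratio of -0.00. *Ccr1* stood at 1069 and 1041 CPM. The formyl peptide receptors *Fpr1* and *Fpr2* had 64 and 93 and 121 and 133 UMIs, and *Cxcr1* had 38 and 22. The pattern recognition receptor *Clec4e* stood at 1307 and 1221 CPM and *Trem1*, which amplifies such signals, at 963 and 954. *Cybb*, the catalytic subunit of the oxidase of the respiratory burst, had only 245 and 122 UMIs, in 45 and 29 cells, and stood below its level in macrophages (306 and 173 CPM in neutrophils, 667 and 659 in macrophages). Its cytosolic partner *Ncf1* stood above macrophages, at 620 and 613 CPM against 148 and 163.

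**Figure D2:**
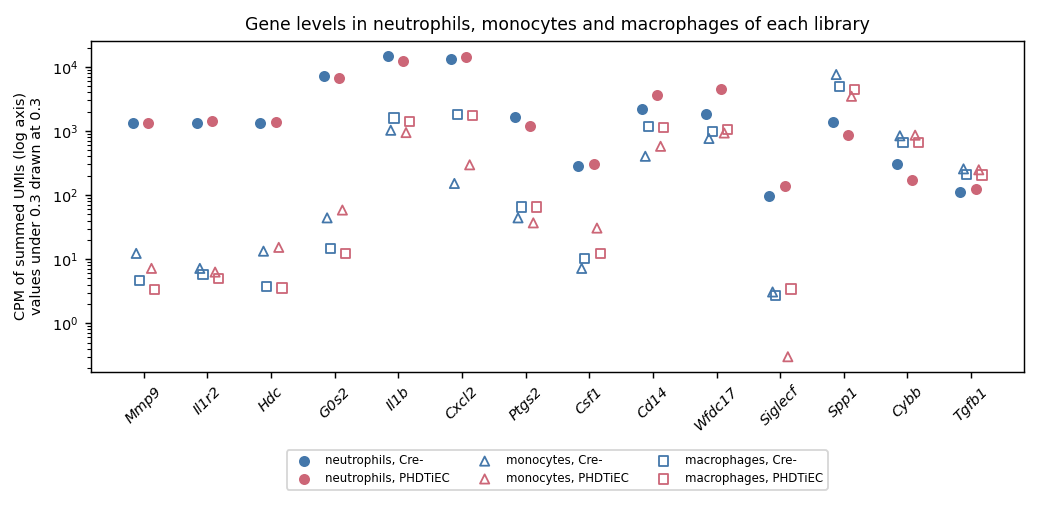
CPM of summed UMIs (log axis) for 14 genes in neutrophils (filled circles), monocytes (triangles) and macrophages (squares) of the *Cre-* library (blue) and the library labelled *PHDTiEC* (red), with values under 0.3 drawn at 0.3. *Il1b* in neutrophils stands at 14886 and 12331 CPM above both other classes, whereas *Spp1*, *Cybb* and *Tgfb1* in neutrophils stand below macrophages.

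Granule genes differed widely in level. Of the azurophil genes, *Mpo*, *Elane* and *Ctsg* had 0 UMIs in the 799703 and 703269 UMIs of the neutrophils, and *Prtn3* had 14 and 5. The specific granule list was seen in 85.2% and 82.9% of cells, with 689 and 534 UMIs of *Lcn2* and 501 and 545 of *Pglyrp1*. It was not particular to neutrophils, at 2920 and 1775 CPM there against 1620 and 1275 in monocytes. All other kept barcodes had 1343 and 1207 CPM, macrophages 266 and 369, and free RNA 933 and 867. In *Cre-* neutrophils, 1056 of its 2335 UMIs lay in 1 cell. The specific granule gene *Camp* had UMIs in 3 *Cre-* neutrophils and in 0 of 310 of the library labelled *PHDTiEC*, which by 3 counts allows up to 0.968% of cells with a UMI. *Ngp* had UMIs in 2 and 8. A single *Cre-* cell stood apart, with 341 of the 351 *Camp*, 426 of the 438 *Ngp*, 43 of the 61 *Ltf* and 114 of the 120 *Chil3* UMIs of its library. It had 7994 UMIs and 2935 of *S100a8* and *S100a9*, and it also held 52 UMIs of proliferation genes, among them 4 of *Mki67*, 6 of *Top2a* and 17 of *Stmn1*, with 1 of *Retnlg*. *Mmp9* and *Mmp8* of the gelatinase granule were seen in 283 and 253 and in 45 and 50 cells.

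The cells were split by *Retnlg*, a gene of the rule. It was absent from 53.6% of *Cre-* neutrophils (185 cells) and 49.0% of those of the library labelled *PHDTiEC* (152), while 80 cells (23.2%) and 96 cells (31.0%) held 5 or more of its UMIs. The line at 5 UMIs was set after values were seen and marks a range, not a type, with 9 and 5 cells at exactly 4 UMIs and 4 and 8 at exactly 5. Cells with 5 or more had a median depth of 2034 UMIs and cells with 0 of 1831 in the *Cre-* library, against 2285.5 and 1830 in the other. *Mmp8*, neutrophil collagenase, stood at 286 CPM in the *Cre-* cells with 5 or more *Retnlg* UMIs (interval 217 to 369) and at 14.96 in those with 0 (interval 5.49 to 32.6). In the library labelled *PHDTiEC* it stood at 504 and 31.8. *Wfdc21*, of the whey acidic protein family, stood at 1305 against 229 CPM and at 2871 against 334. *Ly6g*, the surface antigen used to sort mouse neutrophils, had 11 against 2 UMIs and 38 against 3. *Anxa1*, *S100a6*, *Slpi*, *Pglyrp1* and *Wfdc17* were higher on the same side in both libraries, by log2 ratios of 1.28 to 2.83.

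At the other end stood genes of the tissue activation list. *Siglecf* had 63 UMIs in *Cre-* cells without *Retnlg* and 1 in those with 5 or more, and 85 and 5 in the library labelled *PHDTiEC*. *Ccl3*, a chemokine for monocytes and T cells, stood at 1468 CPM without *Retnlg* and 34.5 with 5 or more, and at 1353 and 116 in the other library. *Ccl4*, *Cxcr4*, *Ccrl2*, *Cd63*, *Cstb*, *Ctsb* and *Tgm2* were also higher without *Retnlg* in both libraries. Cells with a *Siglecf* UMI did not hold more of all of these, since *Ccl4* stood at log2 ratios of -0.05 and -0.56 over cells without one. *Il1b* differed far less than *Ccl3*, with log2 ratios of -0.55 and -0.78 toward the cells without *Retnlg*, and *Cxcl2* by -1.11 and -1.18. *Cxcr2* and *Csf3r* are left out of this comparison, because cells without *Retnlg* entered by those UMIs alone.

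**Figure D3:**
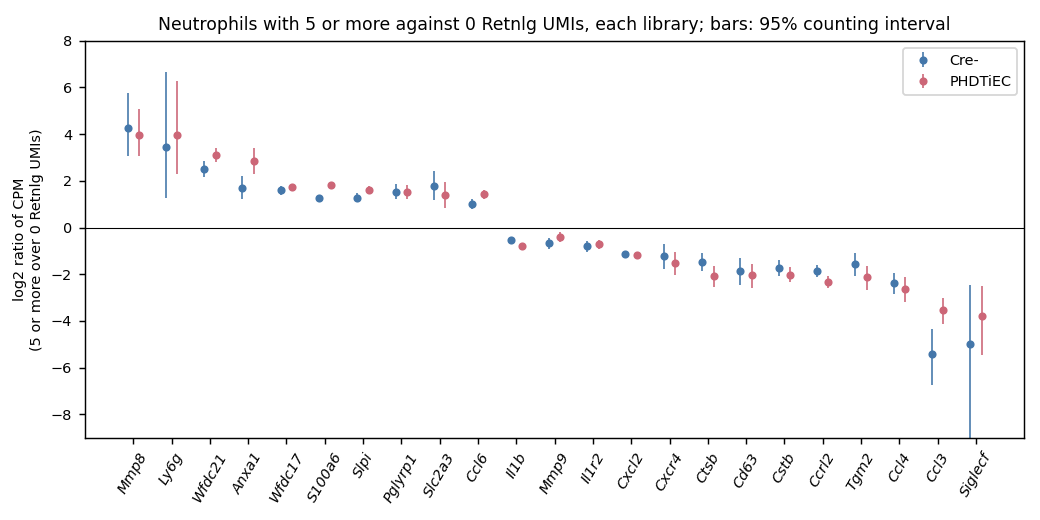
Log2 ratio of CPM between neutrophils with 5 or more and with 0 *Retnlg* UMIs (vertical axis) for 23 genes, in the *Cre-* library (blue) and the library labelled *PHDTiEC* (red), with 95% counting intervals (that of *Siglecf* in the *Cre-* library runs past the axis). The sign is the same in both libraries for each gene drawn, from *Mmp8* (4.25 and 3.98) to *Siglecf* (-5.00 and -3.80), and the genes were chosen with their values known.

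Over whole lists the same split gave these counts. Of 4505 genes with at least 30 UMIs and a ratio in both libraries, 105 (2.33%) were at least 2-fold higher with 5 or more *Retnlg* UMIs in both libraries, and 387 (8.59%) at least 2-fold lower. The median gene stood at -0.24 in the *Cre-* library and -0.42 in the other, which is the level against which these counts read. Of 17 tissue activation genes, 0 were higher and 11 lower in both, among them *Icam1*, *Cd274* (the ligand of PD-1) and *Il1a*. Of 17 cytokine genes 8 were lower and 1, *Ccl6*, higher. Of 22 neutrophil identity genes outside the rule, 9 were higher and 0 lower. Of 20 NF-κB response genes 7 were lower, and of 15 survival genes 7, among them the anti-apoptotic *Bcl2a1b* and *Bcl2l1* but also the pro-apoptotic *Bax* and *Pmaip1*. Of 19 glycolysis genes, 1 was higher (*Slc2a3*, a glucose transporter) and 1 lower (*Hk2*). Of 19 interferon-induced genes, 1 was higher and 0 lower. The antigen-presentation genes *H2-Ab1* and *H2-Eb1*, markers of macrophages and dendritic cells, and the monocyte markers *Ccr2* and *Ly6c2* were also higher on the *Retnlg* side in both libraries, and their part in the rest was not tested.

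Shares of cells were compared after thinning to 1000 UMIs, which left out 5 *Cre-* cells and 3 of the other library. *Siglecf* was seen in 8.82% of *Cre-* neutrophils (interval 6.03 to 12.4) and 12.4% in the library labelled *PHDTiEC* (interval 8.91 to 16.6), against 0.284% and 0.335% of macrophages. *Cxcr4* was seen in 25.3% and 23.1%, *Ccl3* in 17.9% and 18.9% (macrophages, which also express it, 25.6% and 24.7%), *Mmp8* in 8.53% and 9.77% and *Tnf* in 5.59% and 6.19%, each with overlapping intervals. *Il1b* was seen in 97.1% and 97.7% and *Cxcl2* in 86.2% and 88.9%. *Vegfa* was seen in 4.41% (interval 2.49 to 7.17) and 9.12% (interval 6.15 to 12.9), with overlapping intervals. *Retnlg* reached 5 or more of 1000 UMIs in 15.6% (interval 11.9 to 19.9) and 22.1% (interval 17.6 to 27.2).

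Between the libraries, few genes of the neutrophils stood apart by size. Of 4508 genes with at least 30 UMIs over both, 51 (1.13%) were at least 2-fold higher in the library labelled *PHDTiEC* and 147 (3.26%) at least 2-fold lower, around a median log2 ratio of -0.06. *Wfdc17*, a small secreted protein of the whey acidic protein family, had the most UMIs of the higher genes that the rule did not use. It stood at 1822 CPM in 193 of 345 *Cre-* cells and at 4434 CPM in 244 of 310 cells of the other library, a log2 ratio of 1.28 (interval 1.19 to 1.37). Its median over cells was 5.06 per 10000 UMIs in the *Cre-* library, where cells ran from 0 to 384, and 21.9 in the other, where they ran from 0 to 385, so the cells overlapped over the whole range. No cell held more than 3.23% of its UMIs. The difference was 1.15 in cells without *Retnlg* and 1.29 in those with 5 or more, and in macrophages and monocytes the log2 ratios were 0.10 and 0.28. *Wfdc17* and *Wfdc21* lie on chromosome 11 of GRCm38, from 83703991 to 83706268 and from 83746940 to 83752642.

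Some genes higher with *Retnlg* were also higher in the library labelled *PHDTiEC*, while others such as *H2-Ab1* (-1.32) and *Lcn2* (-0.18) were not. Neither of these negative values was stable. The single *Cre-* cell described above held 111 *Lcn2* UMIs, and without it *Lcn2* stood at 0.06 (interval -0.12 to 0.23). Without barcodes holding markers of another type, *H2-Ab1* stood at -0.18 (interval -0.78 to 0.42). Over 13 alternatives of the processing, *H2-Ab1* ran from -2.04 to 1.25. *Retnlg* itself, used by the rule, stood at 2245 and 5089 CPM (log2 ratio 1.18), in 160 of 345 and 158 of 310 cells. After thinning to 1000 UMIs it was seen in 37.1% (interval 31.9 to 42.4) and 44.0% (interval 38.3 to 49.7) of cells. *Wfdc21* stood at 668 and 1385 CPM (1.05, interval 0.90 to 1.21), *Mmp8* at 104 and 210 (1.02, interval 0.62 to 1.43) and *Ly6g* at 31.3 and 65.4 (1.07, interval 0.33 to 1.83), the last from 25 and 46 UMIs. Within cells of 5 or more *Retnlg* UMIs, *Wfdc21* and *Mmp8* differed by 1.14 and 0.82, but there *Retnlg* itself differed by 0.73. In cells without *Retnlg* they differed by 0.54 (interval 0.13 to 0.96) and 1.09 (interval -0.51 to 2.83). *S100a8* differed by 0.35 and *S100a9* by 0.34, both used by the rule. The circulating neutrophil list differed by 0.51 in sum but by 0.06 (interval -0.02 to 0.13) without *Retnlg* and *Cxcr2*. Of its 8 remaining genes, 2 (*Mmp8* and *Ly6g*) were past 2-fold higher, beside 1.13% of all genes.

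*Cd14*, the coreceptor for lipopolysaccharide, was higher by 0.74 (interval 0.65 to 0.83), at 2216 and 3701 CPM, and after thinning it was seen in 64.7% and 82.7% of cells. In macrophages its log2 ratio was -0.02. *Jdp2*, a repressor of AP-1, differed by 0.95 from 92 and 156 UMIs, but it was also higher in macrophages (0.85) and monocytes (0.71). The proton-sensing receptor *Gpr65* (0.88), the chitinase-like gene *Chil1* (0.78), *Sgms2* of sphingomyelin synthesis (0.78) and *Pigx* (1.02), of the synthesis of membrane anchors, were the others of the 10 highest genes with at least 100 UMIs, with 43 to 177 UMIs in each library.

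*Retnla* and *Rsad2* led the higher side by ratio but rested on few cells. *Retnla* had 4 and 105 UMIs, 100 of the latter in 1 cell. *Rsad2*, an interferon-induced antiviral enzyme, had 24 and 80 UMIs in 18 and 20 cells, with 27.5% in 1 cell. The interferon-induced list differed by 0.29 in sum (interval 0.23 to 0.34), with 17 of its 19 measured genes above 0 and a median of 0.25. Of these, 3 (*Rsad2*, *Cxcl10* and *Ifit1*) were past 2-fold higher and 0 lower, beside 1.13% of all genes. *Cxcl10* and *Ifit1* rested on 14 and 35 and on 14 and 27 UMIs, with 40.0% and 37.0% of the latter in 1 cell. Most of the list's UMIs were of *Ifitm1*, at 3735 and 4549 CPM, which differed by 0.28. *Isg15* differed by 0.27 and *Slfn1* by 0.40. The same list was also higher in other classes, by 0.14 in macrophages, 0.03 in monocytes and 0.15 in all other kept barcodes.

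On the lower side, *Camp* (351 and 0 UMIs), *Chil3* (120 and 2) and *Ngp* (438 and 12) were the single *Cre-* cell described above. Against a floor of 3 UMIs per library, *Camp* was lower by a log2 ratio of at least 6.69, nearly all of it that cell. The specific granule list differed by -0.72 (interval -0.82 to -0.62), with 4 of 8 genes past 2-fold lower and 0 higher, beside 3.26% and 1.13% of all genes. Without that cell it differed by 0.14, so the sign rests on 1 cell of 345.

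The remaining genes at the foot of the order were markers of other cells. *C1qa* had 213 and 57 UMIs, *C1qc* 111 and 42, *H2-Ab1* 504 and 177 and *H2-Eb1* 551 and 197, while *Mgl2*, *Fn1* and *Acta2* had 89 and 24, 112 and 35, and 117 and 32. Up to 62.9% of the UMIs of these genes in the *Cre-* library lay in 1 cell, as for *Mgl2*. Barcodes with at least 3 UMIs of C1q genes, tubule markers or lymphocyte markers numbered 31 in the *Cre-* library and 12 in the other. Without them, 314 and 298 cells remained. C1q genes chose the cells left out, so *C1qa* (-0.35) and *C1qc* (0.11) had to move. Of genes not used for the choice, *H2-Ab1* stood at -0.18 (interval -0.78 to 0.42), *H2-Eb1* at -0.57 and *Mgl2* at -0.98. *Acta2* stood at -0.61 (interval -1.34 to 0.10) and *Fn1* at -1.26 (interval -2.77 to 0.09), and 85 genes were past 2-fold lower. The same removal left *Wfdc17* at 1.20, *Retnlg* at 1.10, *Wfdc21* at 0.92, *Mmp8* at 0.79 and *Cd14* at 0.67. With *S100a8* and *S100a9* at 400 or more per 10000, the signs of *H2-Ab1*, *H2-Eb1*, *Mgl2* and *Fn1* turned, to 1.25, 0.88, 0.83 and 1.20. *Acta2* kept its sign in 13 of 13 alternatives (-2.69 to -0.46), *C1qa* in 12 of 12 and *C1qc* in 11 of 13.

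The macrophage marker list as a whole differed by -0.71, with 3 of 10 measured genes past 2-fold lower and 0 higher, beside 3.26% and 1.13% of all genes. At least 1 of its UMIs was held by 79.7% and 81.9% of neutrophils, the most in 1 cell being 475 and 352. The monocyte list differed by -0.55, with *Ccr2* past 2-fold lower and *Ly6c2* past 2-fold higher. The dendritic list differed by -1.01 through *H2-Ab1*, *H2-Eb1* and *Cd74*, and its defining *Xcr1* had 0 UMIs in both libraries. The tubule list differed by 0.04, with UMIs in 41.2% and 37.4% of cells. Lymphocyte markers had 104 and 58 UMIs in 14 and 10 cells, endothelial markers 9 and 37 UMIs in 8 and 12, and fibroblast and mural markers 159 and 47 UMIs in 58 and 41. Red cell markers had 1 and 28 UMIs in 1 and 25 cells. Eosinophil, basophil and mast cell markers had 10 and 4 UMIs, and of these genes *Mcpt8*, *Cpa3*, *Epx* and *Prg2* had 0 UMIs in both libraries. The part of these markers in the other differences was tested only by leaving out the barcodes above.

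**Figure D4:**
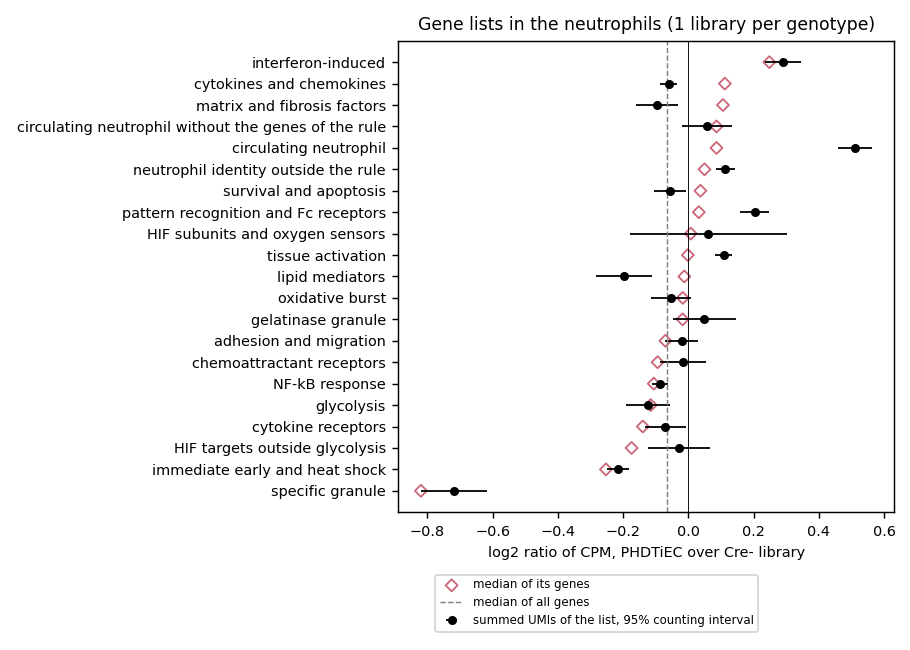
Log2 ratio of CPM between the library labelled *PHDTiEC* and the *Cre-* library in the neutrophils, for the 21 lists with at least 4 measured genes other than markers, as the sum of each list's UMIs (black, 95% counting interval) and the median of its genes (diamonds), with the median of all genes dashed. Of those drawn, the specific granule list at -0.72 rests on 1 *Cre-* cell, the circulating list at 0.51 rests on *Retnlg*, and the other sums drawn lie between -0.22 and 0.29.

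Inflammatory and metabolic lists differed little. The cytokine and chemokine list differed by -0.06 in sum (interval -0.09 to -0.04) but its median gene by 0.11, and its sum turned to 0.026 under TMM scaling. Of its 17 genes, 1 was past 2-fold higher (*Cxcl10*) and 0 lower, beside 1.13% and 3.26% of all genes. *Il1b* differed by -0.27 (interval -0.31 to -0.23). Its cells ran from 0 to 498 per 10000 UMIs with a median of 153 in the *Cre-* library, and from 0 to 479 with a median of 122 in the other. *Cxcl2* differed by 0.11, with medians of 98.2 and 94.0. The tissue activation list differed by 0.11 in sum and by -0.00 at its median, with 0 of 17 past 2-fold either way, and its sum turned to -0.037 when 4 receptor UMIs were asked of a cell. *Siglecf* differed by 0.54 (interval 0.09 to 0.99) from 76 and 97 UMIs. *Spp1* (osteopontin) differed by -0.68, from 1121 and 615 UMIs. It stood at 1402 and 874 CPM in neutrophils, below the 5002 and 4438 of macrophages, the 7592 and 3474 of monocytes and the 17497 and 12802 of all other kept barcodes. The matrix factor list that holds it stood at 16393 and 12247 CPM in free RNA. By tubule markers, free RNA made up an estimated 7.73% and 9.27% of neutrophil UMIs. Of the 186 tubule marker UMIs in the library labelled *PHDTiEC*, 39 lay in 1 cell, so its estimate rests partly on that cell. With free RNA subtracted by these estimates, no *Spp1* UMIs were left in at least 1 library, so the gene had no ratio. In the other 12 alternatives its log2 ratio ran from -0.73 to -0.42. The cause of the *Spp1* difference was not tested.

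The immediate early and heat shock list differed by -0.22 (interval -0.25 to -0.18), with 1 of 18 genes above 0 and none past 2-fold. The same list differed by 0.04 in macrophages, -0.10 in monocytes and 0.14 in all other kept barcodes. Its genes respond to dissociation as well as to stimuli in tissue, which cannot be told apart in these libraries. *Zfp36*, which destabilizes cytokine RNA, differed by -0.67, *Klf2* by -0.45 and *Junb* by -0.30, while *Zfp36* in macrophages differed by -0.04. *Ptgs2* differed by -0.43, where macrophages stood at 65.0 CPM in both libraries. The NF-κB response list differed by -0.09.

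Glycolysis, the pathway that supplies most of the energy of neutrophils, differed by -0.12 (interval -0.19 to -0.06), with a median of -0.12, 7 of 19 genes above 0 and none past 2-fold. The glycolytic enzymes *Tpi1* (-0.68), *Pgk1* (-0.56) and *Aldoa* (-0.47) were lower and the glucose transporter *Slc2a3* (0.40) higher. *Slc16a3*, which encodes the lactate exporter MCT4, stood at 669 and 712 CPM, a log2 ratio of 0.09 (interval -0.09 to 0.27), against 27.0 and 22.5 CPM in macrophages. HIF targets outside glycolysis differed by -0.03 in sum and by -0.17 at their median, with 0 of 18 past 2-fold. Among them *Vegfa* differed by 0.57 and *Hilpda* by -0.71. Over 13 alternatives *Vegfa* ran from 0.07 to 0.73. In cells without *Retnlg*, *Vegfa* differed by 1.01 (interval 0.40 to 1.64) and *Hilpda* by -0.92 (interval -1.60 to -0.28). In those with 5 or more *Retnlg* UMIs, they differed by -0.23 (interval -1.48 to 1.03) and 0.32 (interval -0.80 to 1.49). *Hif1a* had 162 and 134 UMIs, a log2 ratio of -0.09.

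The other lists were described the same way. Cytokine receptors differed by -0.07, adhesion genes by -0.02, oxidative burst genes by -0.05, lipid mediator genes by -0.20 through *Ptgs2*, survival genes by -0.06 and matrix factors by -0.10, with *Mmp8* past 2-fold higher and *Fn1* lower among the last. Pattern recognition and Fc receptors differed by 0.20 through *Cd14*, with a median of 0.03. Chemoattractant receptors differed by -0.02, with 3 of 12 past 2-fold lower and 0 higher, beside 3.26% and 1.13% of all genes. The 3 were *Ccr2*, *Cx3cr1* and *C3ar1*, which macrophages also express. Without barcodes holding markers of another type, *Ccr2* stood at 0.29 and *C3ar1* at -0.30. *Cx3cr1* there stayed at -2.06 (interval -3.39 to -0.92), from 34 and 8 UMIs. Gelatinase granule genes differed by 0.05, oxygen sensors and HIF subunits by 0.06, and identity genes outside the rule by 0.11. Of these identity genes, 3 of 22 (*Mmp8*, *Ly6g* and *Wfdc21*) were past 2-fold higher, beside 1.13% of all genes. The azurophil list differed by -0.59 (interval -1.38 to 0.17) from 41 and 24 UMIs, mostly of *Serpinb1a* and none of *Mpo*, *Elane* or *Ctsg*. Proliferation genes differed by -2.12, from 84 and 17 UMIs, of which 52 were in the single *Cre-* cell. *Stmn1*, the only one of them with at least 30 UMIs, had 28 and 6, and 11 and 6 (-0.70, interval -2.42 to 0.86) without that cell.

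**Figure D5:**
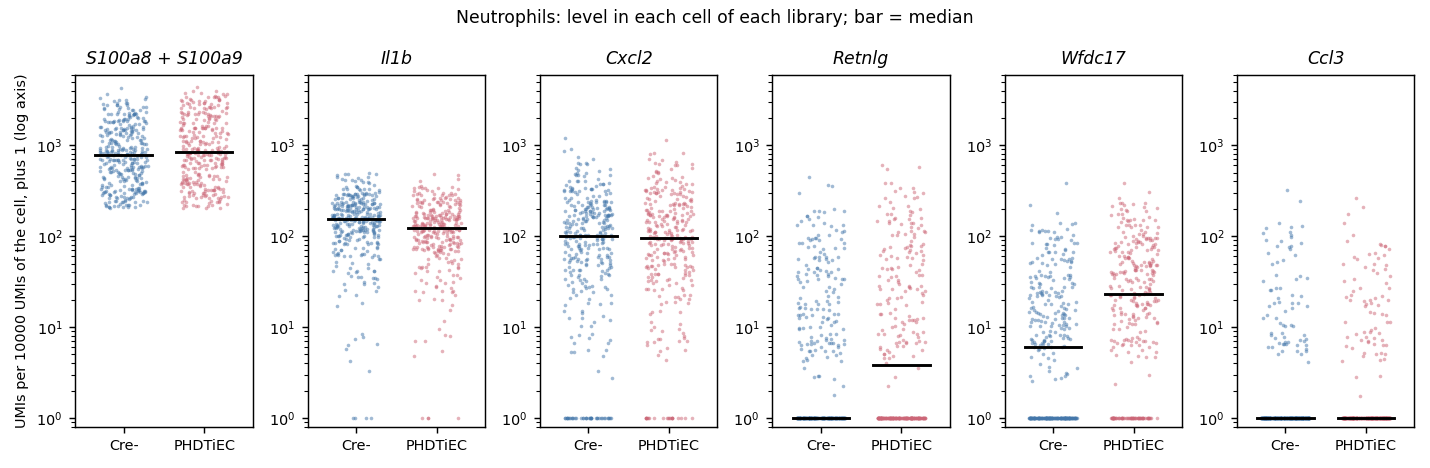
UMIs per 10000 UMIs of the cell, plus 1 (log axis), in each of 345 *Cre-* neutrophils (blue) and 310 of the library labelled *PHDTiEC* (red), with bars at the medians, for *S100a8* with *S100a9* (used to choose the cells), *Il1b*, *Cxcl2*, *Retnlg*, *Wfdc17* and *Ccl3*. The *Wfdc17* median stands at 5.06 and 21.9, *Il1b* at 153 and 122, *Ccl3* at 0 in both, and the cells of the libraries overlap in every panel.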

How the data were processed

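Whole kidneys were dissociated and run on the 10x Genomics Chromium 3′ kit, 1 library of 1 mouse per genotype. Per the file headers and the study's methods, the authors aligned reads with Cell Ranger 4 to mm10 and deposited raw UMI counts per gene and barcode, with no cell filter, ambient correction or normalization. Barcodes were kept with 500 to 100000 UMIs, at least 200 genes, at most 50% mitochondrial UMIs and a complexity (log10 of genes over log10 of UMIs) no lower than 0.8. Macrophages had at least 20 C1q UMIs per 10000 and 1 *Csf1r* UMI, and monocytes at least 2 *Ly6c2* UMIs, 1 *Ccr2* UMI and under 5 C1q UMIs per 10000. Endothelial barcodes had no *Ptprc* UMI, a *Cdh5* UMI and at least 3 UMIs of 5 further endothelial genes. No doublet caller was run. Barcodes with markers of another type were left out as an alternative.

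UMIs were summed per class and library, divided by the class total and given as CPM (per 1000000 UMIs). A gene was set past 2-fold at a log2 ratio of 1 or -1. Intervals for a CPM are exact Poisson, and those for shares and log2 ratios are Clopper-Pearson. Named genes were those of the rule and of 32 lists, the floxed genes, the 15 highest over other barcodes with at least 100 UMIs in each library, and the 10 highest and 10 lowest by ratio with at least 100 UMIs over both, without mitochondrial, ribosomal protein, haemoglobin and rule genes and *Xist*. The members and lists were chosen with earlier results of these data known, and the genes set against *Retnlg* after their values were seen. Coordinates are from GENCODE vM21 by gene identifier, which matched 32158 of 32285 genes. Python 3.11.15, scipy 1.17.1 and edgeR 4.0.16 (TMM only) were used, and the ratio was tested on simulated counts. Some items are not reported here.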

Additional observations from a re-analysis of the deposited data

How the results depend on the processing

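The neutrophil share ratio stayed below 1 under each of 9 alternatives, at 0.788 to 0.895 in 8 and at 0.427 when barcodes needed 10% of the UMIs of the barcode ranked 100, which left 4 and 2 neutrophils. Its interval crossed 1 with that rule (0.0386 to 2.98), with a minimum of 200 UMIs (0.766 to 1.05) and without barcodes holding markers of another type (0.740 to 1.02). Values below are counts past 2-fold or log2 ratios of summed lists, for the library labelled *PHDTiEC* over *Cre-*.

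With *S100a8* and *S100a9* at 100 or more per 10000, 85 genes were higher, and tissue activation stood at 0.15, cytokines at -0.011 and interferon-induced genes at 0.23, with fibroblast and mural markers at 1.47, *Retnla* at -1.31, *C1qc* at 0.070, *Cxcl10* at -0.28, *C3ar1* at 0.070 and *Spink1* at -0.46. With 400 or more, 81 genes were lower, and specific granule genes stood at -0.93, tissue activation at 0.051, cytokines at -0.15 and interferon-induced genes at 0.16, with dendritic markers at 1.32, *Mgl2* at 0.83, *Fn1* at 1.20, *H2-Ab1* at 1.25, *H2-Eb1* at 0.88, *Ccr2* at 3.02, *C3ar1* at 2.34 and *Mrc1* at 0.76. With 4 receptor UMIs, specific granule genes stood at 0.21, tissue activation at -0.037, cytokines at -0.10, *Ngp* at 0.23 and *Ltf* at 1.12. Tissue activation stood at 0.14 with at most 20% mitochondrial UMIs.

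Without barcodes holding markers of another type, 85 genes were lower, and specific granule genes stood at -0.90, tissue activation at 0.040, cytokines at -0.12, interferon-induced genes at 0.23, *C1qc* at 0.11 and *Ccr2* at 0.29. TMM scaling gave 0.20, 0.026 and 0.38 for tissue activation, cytokines and interferon-induced genes and -0.036 for glycolysis. Means over cells gave -0.30, 0.076, -0.094 and 0.22 for specific granule, tissue activation, cytokine and interferon-induced genes. With free RNA subtracted, 294 genes were lower and tissue activation stood at 0.14. At a minimum of 100 UMIs per gene, which tests fewer genes, 7 were higher and 15 lower, and at 1 UMI 2171 and 3122.

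Of 2 alternatives chosen after seeing the data, leaving out the 1 *Cre-* cell gave 0.14 for specific granule genes, 0.17 for *Ngp* and 0.32 for *Ltf*, and leaving out each gene's top cell gave 0.077 for specific granule genes and 0.075 for tissue activation. Where no value shows the cause, it was not tested. *Wfdc17* stayed past 2-fold in 13 of 13 alternatives. No paired analysis was possible because each genotype has 1 library. A neutrophil's median depth of 1903 and 1923.5 UMIs limits genes of few UMIs.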
